A study of Mus musculus with 12 samples.

Results

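Tnf, the gene of tumor necrosis factor, its receptor genes Tnfrsf1a and Tnfrsf1b, and Tnfaip3 and Nfkbia, which encode inhibitors acting downstream of the receptors, were followed through the cells of the hind paw epidermis. The 5 genes were taken by symbol from the 32285 genes counted in every library. Epidermis came from the glabrous hind paw skin of 12 C57BL/6J wild-type mice, was split from the dermis with Dispase, dissociated with TrypLE and sequenced as single cells with 10x Genomics 3′ droplets, 1 library per mouse. Mice entered the study at 6 to 8 weeks of age and ate regular chow with 11% fat (RD) or the high-fat chow EnvigoTD88137 with 42% fat (HFD) over 10 weeks, so that they were 16 to 18 weeks old at harvest. No mouse received a drug or carried a transgene. Each sex had 3 RD and 3 HFD mice. The comparison of HFD with RD asks what changes in the epidermis in a diet model of painful diabetic neuropathy, and it was made in males and in females apart. The file headers name Cell Ranger 6.1.0 for all male and 7.2.0 for all female libraries, so that sex and counting software cannot be told apart and no level was tested between the sexes.

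Tumor necrosis factor is made as a membrane protein and is shed by the protease encoded by Adam17. It binds the receptor encoded by Tnfrsf1a, which most cell types carry and which signals through the adaptor encoded by Tradd, and the receptor encoded by Tnfrsf1b, which is best known from leukocytes. Both routes activate the transcription factor NF-κB. Nfkbia encodes IκBα, which holds NF-κB in the cytoplasm, and Tnfaip3 encodes a ubiquitin-editing enzyme that ends the signal. Both inhibitor genes are textbook targets of NF-κB, and Tnf itself is induced by it in myeloid cells. Langerhans cells (LCs) are the resident antigen-presenting cells of the epidermis, and tumor necrosis factor is known for its part in their migration to lymph nodes.

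In the GENCODE vM21 annotation of GRCm38, the build of the files, Tnf (ENSMUSG00000024401) lies on the minus strand at chr17:35199381-35202007 with at most 4 exons. Tnfrsf1a (ENSMUSG00000030341) lies on the plus strand at chr6:125349362-125362484 and has 10 exons, as does Tnfrsf1b (ENSMUSG00000028599) on the minus strand at chr4:145213463-145246870. Tnfaip3 (ENSMUSG00000019850) lies on the minus strand at chr10:19000910-19015657 with 9 exons, and Nfkbia (ENSMUSG00000021025) on the minus strand at chr12:55489410-55492647 with 6 exons.

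The promoters show what the inhibitor genes share in sequence. All 5 genes had an entry, and Tnfaip3 had a pair of them, among the 32817 RefSeq promoters of GRCm38.p6, and the 250 bases before each start were searched. The NF-κB consensus of 10 bases, searched on both strands, was in 7.25% of all promoters. It was present in the promoters of Tnfaip3, in the upstream one of its windows at -125 to -116 and -12 to -3 from the start, and of Nfkbia, at -29 to -20, and these letters were not in the windows of Tnf, Tnfrsf1a and Tnfrsf1b. TATAAA, searched on the coding strand and held by 7.60% of promoters, was in the Tnf promoter at -29 to -24 and in that of Tnfaip3 at -225 to -220. TGANTCA, the AP-1 motif, held by 6.75% of promoters on either strand, was in the Tnfaip3 promoter alone among the 5, at -136 to -130. A match describes the letters only. The last 130 bases before the start are shown for the 3 genes with a match there, 5′ to 3′ on the coding strand, with TATAAA in capitals for Tnf (chr17:35202008-35202137, minus strand) and the NF-κB consensus in capitals for Tnfaip3 (chr10:19015411-19015540, minus strand) and Nfkbia (chr12:55492648-55492777, minus strand), from RefSeq:
Tnf: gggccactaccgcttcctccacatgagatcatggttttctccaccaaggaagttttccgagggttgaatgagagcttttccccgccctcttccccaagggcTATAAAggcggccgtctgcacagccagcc
Tnfaip3: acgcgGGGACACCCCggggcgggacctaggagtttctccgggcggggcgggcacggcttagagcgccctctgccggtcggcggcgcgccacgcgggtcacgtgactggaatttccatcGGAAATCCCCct
Nfkbia: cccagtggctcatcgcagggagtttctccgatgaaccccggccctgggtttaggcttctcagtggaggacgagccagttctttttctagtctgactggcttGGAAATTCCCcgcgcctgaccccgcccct

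The 2 windows of Tnfaip3 differed in composition, which was counted over the 250 bases before the start and not over the whole window. The upstream window (chr10:19015361-19015660), which held all matches and is the one shown, had a GC content of 58.8% and 22 CpG dinucleotides, and the other (chr10:19011914-19012213) had 46.4% and 6, against medians of 52.4% and 6 over all promoters. The GC content was 57.6% for Tnf, 55.6% for Tnfrsf1a, 62.8% for Tnfrsf1b and 59.2% for Nfkbia, with 8 to 12 CpG dinucleotides.

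Libraries held 134449247 to 194673581 UMIs (unique molecular identifiers, each counted as 1 RNA molecule), and 62147 male and 64228 female cells passed the filters. Cells were clustered in each sex and named from marker genes, without the 5 genes described here. The first LC clusters (1344 male, 2146 female cells) met all 6 LC markers such as Cd207, and the first T cell clusters (223 and 339) all 7 T cell markers. These immune cells were then clustered again, which gave 1373 and 2199 LC-like and 194 and 286 T cell-like cells. Every subcluster not named T cell was counted as LC-like there, and the female T cell subclusters met 6 of 7 markers. The keratinocyte classes were basal (16892 and 18082), proliferating (8338 and 11194), suprabasal or spinous (16158 and 15713), terminally differentiated (3293 and 1670) and migratory (2905 and 3677). The female proliferating class included a cluster of 404 cells that met all 11 proliferation markers but had none of them among its 10 leading genes, where genes shared with the migratory cluster such as Lhx2 and Lgr5 stood. A volar class was named in males only (12994 cells), while the female cluster led by Ch25h (11407 cells) met no criterion for a name. Neither entered the diet tests or the class levels given below. A cluster called led by a gene has it among its 10 leading genes by fold, not always first. Libraries shared 12 to 59 cell barcodes per pair, at most 0.583% of the smaller library. Levels are in CPM, the UMIs of a gene relative to all UMIs of the class in the same mouse, given as mean ± SD over 6 mice of a sex. They are compared between cells and not between genes. Such levels are descriptive: cells were clustered on expression, so no test was made between classes.

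Tnf, the ligand, was highest in the immune cells in both sexes. LC-like cells held 144 ± 56.8 CPM in males and 190 ± 33.8 in females, on 1171 and 3504 UMIs, and T cell-like cells 182 ± 38.0 and 116 ± 32.1. The order of these classes differed between the sexes and their mice overlapped, with T cell-like cells the higher in 4 of 6 males and 1 of 6 females. The male order depended on the cells used. With marked doublets removed from both classes (21.3% of male LC-like and 30.4% of male T cell-like cells), T cell-like cells stayed above LC-like cells, with 261 against 214 CPM, and as means over cells the levels were 179 and 190 CPM. Without an LC-like state that carried keratinocyte transcripts, most of whose cells were marked as doublets, and with the T cell-like cells as they were, LC-like cells held 232 ± 59.9 CPM in males and 255 ± 51.5 in females, and T cell-like cells were the higher in 1 of 6 males and 0 of 6 females. In basal keratinocytes the level was 9.07 ± 1.73 CPM in males and 11.5 ± 4.24 in females, so that the LC-like mean was 15.8 and 16.5 times the basal mean, and it was above it in 6 of 6 mice of each sex. Without the state with keratinocyte transcripts it was 25.6 and 22.1 times the basal mean. Suprabasal cells were lowest with 3.58 ± 0.912 and 2.21 ± 0.958 CPM. Neighbors among the male keratinocyte classes overlapped. In females, basal and proliferating cells (10.7 ± 4.38 CPM) stood above the migratory cells (4.32 ± 1.84) without overlap, and 1 mouse, HFD replicate 3, had the highest level in basal (19.8 CPM) and proliferating cells (19.6 CPM).

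The receptor genes divided the epidermis differently. Tnfrsf1a was present at a similar level in LC-like cells and in most keratinocytes. It reached 75.5 ± 10.4 CPM in male and 90.9 ± 8.80 in female LC-like cells, 70.9 ± 4.03 and 89.1 ± 5.96 in basal cells, and 80.3 ± 7.81 and 72.0 ± 6.24 in suprabasal cells. Terminally differentiated cells were lower with 32.6 ± 4.95 and 35.9 ± 5.24 CPM, and the basal mean was 2.17 and 2.48 times as high, in 6 of 6 mice of each sex. This class had a median of 1367 genes on 15553 UMIs per cell in males, where the basal cluster led by Dlk2 had 1994 on 7252. It was also lowest for other genes of the pathway, such as Rela (21.6 CPM in males, 24.0 in females). Cflar was highest there (66.0 and 72.3 CPM). How far the make-up of the class lowered its Tnfrsf1a level was not tested. T cell-like cells held 41.5 ± 25.2 and 25.1 ± 18.4 CPM, on 13 and 20 UMIs only, and at this depth their place beside the terminally differentiated cells could not be ordered. Within the suprabasal cells, the cluster led by Serpinb3a was above the cluster led by Bco1 in 6 of 6 mice of each sex. The latter had Bco1 first among its leading genes in males, while in females Tdh came first and Bco1 was the ninth, and it supplied 10339 of the 15713 female suprabasal cells. The Serpinb3a-led and the Bco1-led cluster had Tnfrsf1a levels of 93.3 ± 9.08 and 64.1 ± 5.29 CPM in males and 77.7 ± 6.56 and 67.7 ± 6.06 in females.

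Tnfrsf1b was a gene of the immune cells. T cell-like cells held 166 ± 42.2 CPM in males and 170 ± 40.1 in females, and LC-like cells 55.2 ± 11.2 and 139 ± 19.4. The T cell-like level was 3.00 times the LC-like level in males, without overlap of the mice, whereas in females the ranges overlapped. Without the state with keratinocyte transcripts, LC-like cells held 92.3 ± 20.8 CPM in males and 184 ± 13.5 in females, and the T cell-like level was 1.80 and 0.923 times theirs, again without overlap in males and with overlap in females. With marked doublets removed from both classes, T cell-like cells held 196 and LC-like cells 84.3 CPM of Tnfrsf1b in males, and 157 and 175 in females. Keratinocyte classes held 0.0404 to 0.162 CPM on 3 to 27 UMIs per class.

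Tnfaip3 was highest in T cell-like cells, where the level was 813 ± 114 CPM in males and 643 ± 135 in females. LC-like cells followed with 219 ± 59.4 and 178 ± 44.3 CPM, and the T cell-like mean was 3.71 and 3.62 times theirs, in 6 of 6 mice of each sex, and 2.55 and 2.93 times without the state with keratinocyte transcripts. Of the keratinocytes, suprabasal cells came first with 70.8 ± 16.0 and 49.5 ± 6.05 CPM. Nfkbia was present in every class. T cell-like cells held 1975 ± 543 and 1585 ± 167 CPM and LC-like cells 1441 ± 248 and 1254 ± 191, whereas male keratinocyte classes had means of 768 to 1012 CPM. The LC-like mean of Nfkbia was 1.60 times the basal mean in males and 1.34 times in females.

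**Figure D1:**
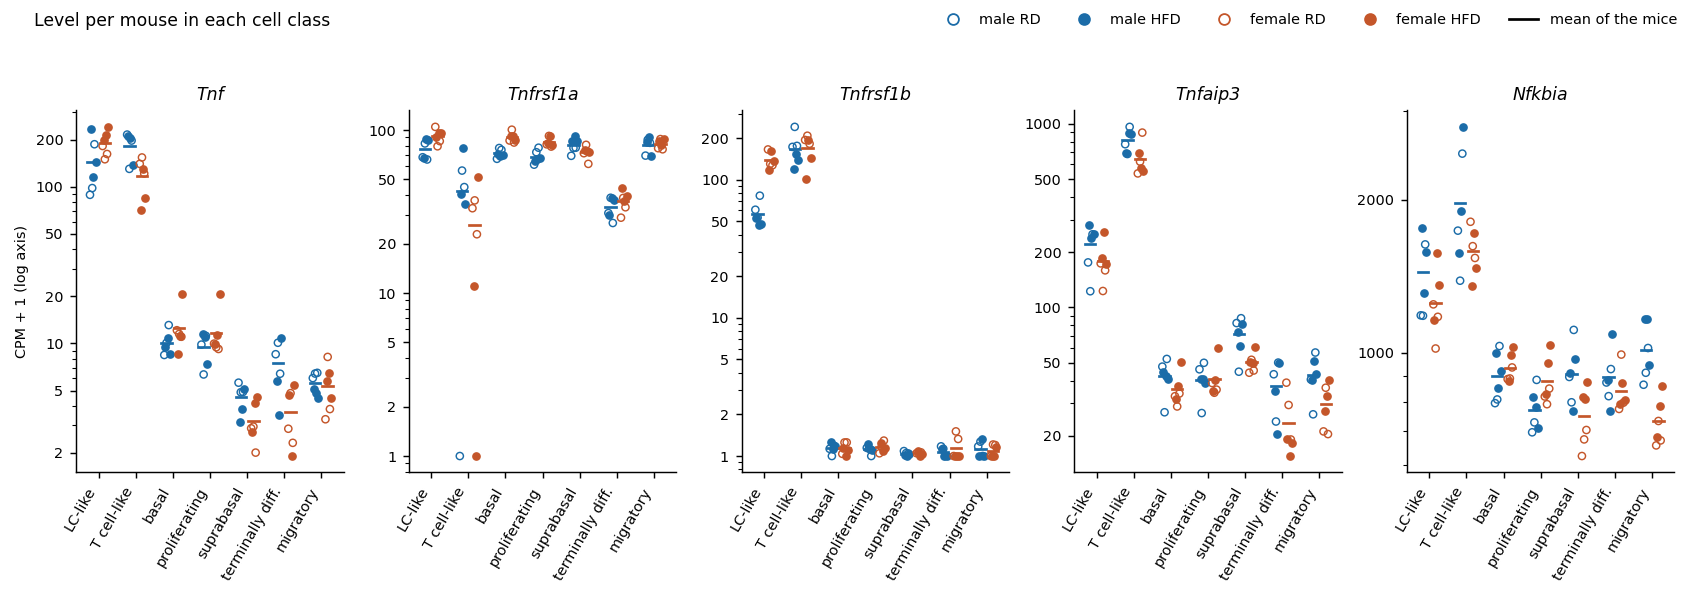
CPM + 1 on a log axis of each of the 5 genes in 7 cell classes, with 1 point per mouse (open RD, filled HFD, blue male, orange female) and a line at the mean of 6 mice. Tnf and Tnfrsf1b stand highest in LC-like and T cell-like cells, Tnfrsf1b is near 0 in keratinocytes (at most 0.162 CPM on average), and Tnfrsf1a is lower in terminally differentiated (32.6 and 35.9 CPM) than in basal cells (70.9 and 89.1 CPM). Terminally differentiated cells were also lowest for other genes of the pathway, such as Rela, though not for Cflar.

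A small class can hold much of a gene's RNA or little of it. LC-like cells were 2.14% of the cells and held 1.14% of all UMIs per male library, yet 21.5% ± 4.91 of the Tnf UMIs. In females they were 3.44% of cells and held 40.4% ± 8.21 of the Tnf UMIs, with 28.8% to 49.6% in single libraries. Basal cells held 23.6% and 22.1%, and suprabasal cells 18.9% in males and 6.09% in females. Of the Tnfrsf1b UMIs, LC-like cells held 80.8% in males and 92.1% in females, and T cell-like cells 9.02% and 5.22%. LC-like cells held only 1.25% of the Tnfrsf1a UMIs of male libraries, and the suprabasal cells 43.9%. The totals behind these shares were on average 933 Tnf, 9100 Tnfrsf1a and 101 Tnfrsf1b UMIs per male library and 1462 Tnf and 459 Tnfrsf1b UMIs per female library.

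**Figure D2:**
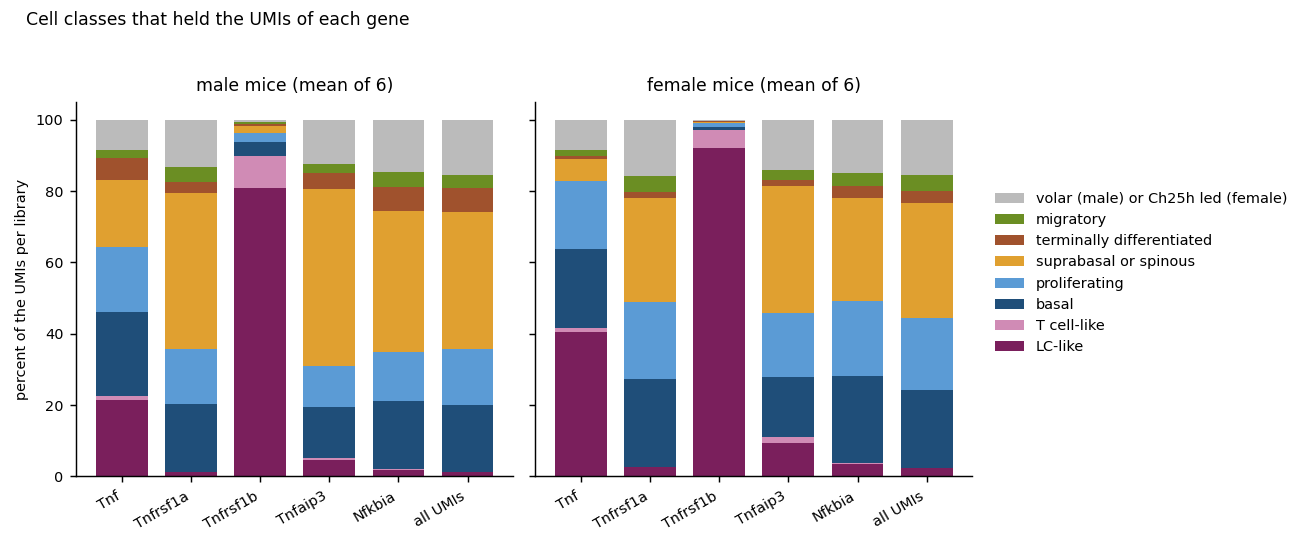
Stacked bars of the percent of each gene's UMIs that lay in each cell class (mean of 6 libraries), for males and females, with the split of all UMIs as the last bar. The LC-like part is 21.5% and 40.4% for Tnf and 80.8% and 92.1% for Tnfrsf1b, against 1.14% and 2.32% of all UMIs.

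In droplets, RNA set free by broken cells gives UMIs in cells that do not express a gene. The Tnf UMIs were therefore set beside those of Cd207, which encodes langerin and marks LCs. LC-like cells held 5.09 Tnf UMIs per 100 Cd207 UMIs in males and 5.26 in females. In the keratinocyte classes the ratio was 209 to 2253 in males and 28.8 to 1457 in females. The ratio also varied among the LC-like states, from 2.87 to 14.7 in males and from 4.50 to 13.2 in females, and the part of free RNA in the keratinocyte levels was not tested. Cd207 itself was at 2654 and 3584 CPM in LC-like cells, at 0.376 to 2.89 and 0.761 to 7.53 CPM in keratinocyte classes, and at 0 in T cell-like cells. For Tnfrsf1b, LC-like cells held 2.15 and 3.81 UMIs per 100 Cd207 UMIs and keratinocyte classes 2.45 to 36.2 and 1.67 to 18.5, on 3 to 27 Tnfrsf1b UMIs per class. Among the LC-like states this ratio ran from 1.15 to 6.32 in males and from 2.60 to 9.66 in females. Both upper ends came from the small Ccr7+ state described below, on 6 and 54 Tnfrsf1b UMIs. The next highest states stood at 2.24 and 4.14. The male terminally differentiated (2.45), female suprabasal (4.90) and female migratory cells (5.77) lay within the full range but above the next highest state of their sex. The female terminally differentiated cells (1.67) lay below the range. The share of cells with a Tnf UMI was 40.8% of male LC-like and 6.25% of male basal cells, and 52.7% and 7.70% in females. After thinning each cell to 1000 UMIs it was 13.8% and 0.818% in males and 15.7% and 1.02% in females, and 0.341% and 0.202% in suprabasal cells.

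LC-like cells were clustered again. The largest state (626 male and 1200 female cells) carried LC genes and met no name of its own, the Cenpe+ state (41 and 35 cells) carried all 6 of its division markers and the Ccr7+ state (16 and 42 cells) all 7 markers of migrating LCs. A state led by Jun and Hspa1a (381 and 361 cells) carried immediate-early and heat shock genes, whose summed level was 19195 and 17102 CPM. Immediate-early and heat shock genes can also rise during tissue dissociation, and their part in the levels of this state was not tested. In females it also met 3 of 5 markers of a chemokine-high state, such as Ccl3 and Ccl4, and so met that name. In males it met 2 of 5, short of the name, and had Ccl2 among its 10 leading genes. It is called by Jun and Hspa1a in both sexes. A state with keratinocyte transcripts (309 and 388 cells) had 83.5% and 85.6% of its cells marked as doublets. In females a state led by Hes6 held 173 cells.

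Tnf was higher in the state led by Jun and Hspa1a than in the largest state in males, with 325 ± 109 against 161 ± 38.9 CPM and in 6 of 6 mice. In females the means were 338 ± 218 and 244 ± 86.6 CPM, in 4 of 6 mice, and RD replicate 2 alone reached 781 CPM. The Ccr7+ state held 221 ± 86.8 CPM over 5 male mice and 252 ± 117 in females, and the Cenpe+ state 291 ± 205 and 160 ± 126. Mice of both states overlapped those of the largest state. The state with keratinocyte transcripts was lowest with 41.3 ± 12.7 and 79.5 ± 18.3 CPM.

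Tnfrsf1b went the other way. Its highest mean was in the largest state, with 117 ± 20.8 CPM in males and 209 ± 13.0 in females. The rank against the Ccr7+ state (6 and 54 Tnfrsf1b UMIs) and the Cenpe+ state (8 and 50) is not settled at such counts. The state led by Jun and Hspa1a held 59.5 ± 35.2 and 115 ± 22.5 CPM, lower than the largest state in 6 of 6 mice of each sex. Tnfrsf1a had the same order in males, with 92.2 ± 8.76 CPM in the largest and 52.7 ± 18.8 in the state led by Jun and Hspa1a, lower in 6 of 6 males and 5 of 6 females. In the Ccr7+ state the count of Tnfrsf1a was 0 of 70753 UMIs in males, which allows up to 42.4 CPM, and 23.0 ± 18.5 CPM in females. Tnfaip3 in males was 458 ± 83.1 CPM in the state led by Jun and Hspa1a against 222 ± 59.7 in the largest, and in females 242 ± 33.6 against 224 ± 67.4. Nfkbia was highest in the Ccr7+ state of males with 3359 ± 877 CPM over 5 mice, against 1560 ± 194 in the largest state. In females these were 1653 ± 623 and 1446 ± 277 CPM and overlapped.

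**Figure D3:**
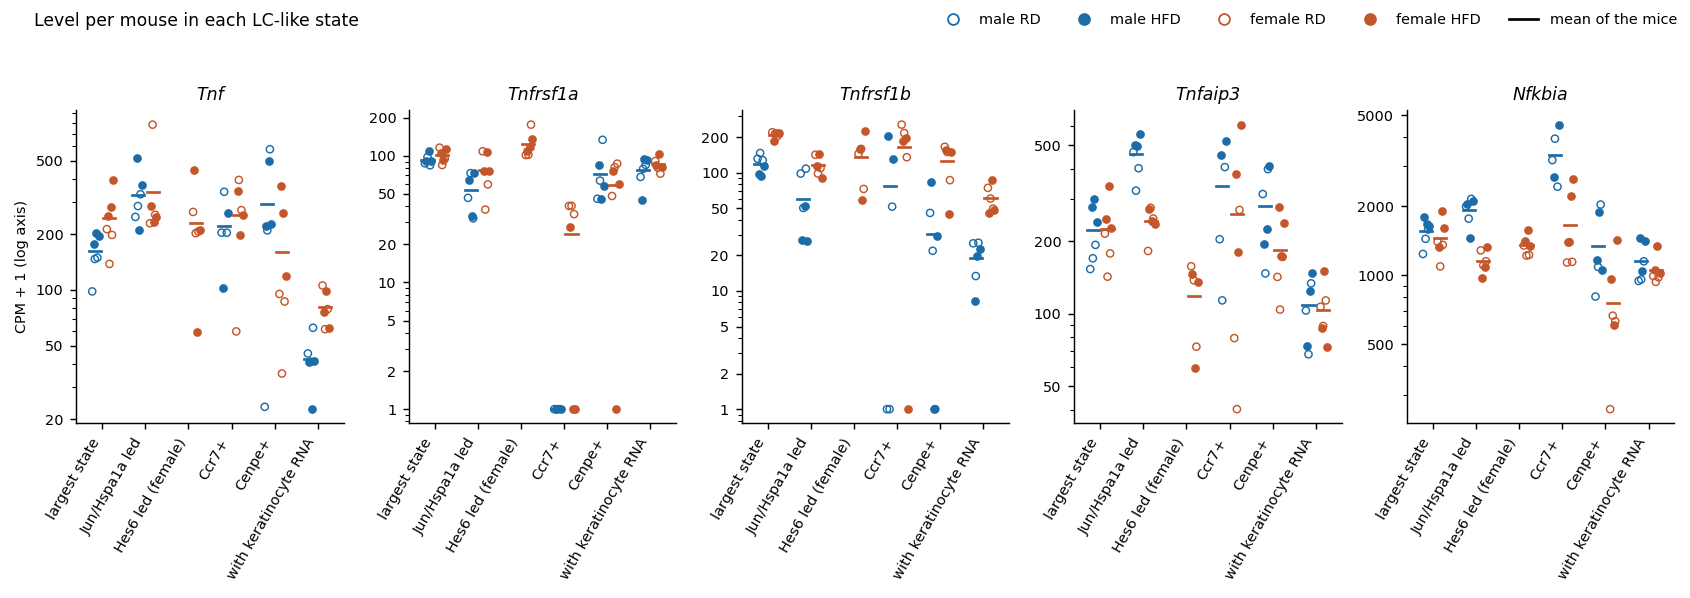
CPM + 1 on a log axis in each LC-like state, with 1 point per mouse (open RD, filled HFD, blue male, orange female) and a line at the mean of the mice. Tnfrsf1b has its highest mean in the largest state, while Tnf and Tnfaip3 are highest in the state led by Jun and Hspa1a in males. Spreads are wide in the small Ccr7+ and Cenpe+ states, whose rank for Tnfrsf1b is not settled.

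T cell-like cells fell into a cluster led by Il22 (132 male and 231 female cells) and one led by Col27a1 (62 and 55 cells). Tnfrsf1b was 462 ± 195 CPM in the female Col27a1-led and 107 ± 19.2 in the female Il22-led cluster, higher in 6 of 6 mice, and 220 ± 97.1 and 167 ± 66.5 in males, where the mice overlapped. The female Col27a1-led level of Tnfrsf1b rests on 60 UMIs, and 38.2% of the cells of that cluster were marked as doublets. Tnf was 188 ± 55.0 CPM in the Il22-led and 233 ± 168 in the Col27a1-led cluster of males, and 111 ± 25.5 and 130 ± 71.2 in females. The Col27a1-led cluster held 16 Tnf UMIs in males and 20 in females, from 2 to 23 and 4 to 20 cells per mouse. At this depth the clusters could not be ordered by Tnf. Nfkbia was 2330 ± 480.5 CPM in the Il22-led and 924 ± 387 in the Col27a1-led cluster of males, and 1672 ± 258 and 1483 ± 431 in females.

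Basal keratinocytes were divided too. Tnf was 25.5 ± 9.77 CPM in the cluster led by Csrp2 (1613 male and 1474 female cells) and 7.37 ± 1.61 in the cluster led by Dlk2 (15279 and 16608 cells) in males, and 26.1 ± 9.66 against 10.2 ± 3.82 in females. The Csrp2-led cluster was higher in 6 of 6 mice of each sex, by 1.67 to 7.30 times in males and 1.64 to 3.92 times in females. Tnfaip3 followed the same order, with 60.4 ± 11.3 against 39.5 ± 9.07 CPM in males and 65.7 ± 17.6 against 32.2 ± 6.74 in females. The Csrp2-led cluster held 331 Tnf and 3 Cd207 UMIs in males and 356 Tnf and 15 Cd207 UMIs in females.

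The diet comparison was made on UMIs summed per mouse and class with edgeR's quasi-likelihood test and Benjamini-Hochberg adjustment over all genes of the class. None of 73 tests of the 5 genes passed an adjusted p of 0.05. The tests took the suprabasal cells as a sum and again as each of its 2 clusters, so they overlap. At an unadjusted p under 0.05 there were 18. The female suprabasal sum, Bco1-led and Serpinb3a-led cluster held 2, 3 and 2 of these, and the male ones 1 each. How many of all genes were under this unadjusted cut is given below for LC-like cells and the female suprabasal clusters. The 18 are not read as a result about the 5 genes. DESeq2 called 3, all of Nfkbia, in the 2 suprabasal clusters of females and in their sum (where it called 6.12% of all genes). Tnfrsf1b had too few counts for a test in every keratinocyte class that was fitted and in male T cell-like cells, as did Tnfrsf1a in T cell-like cells. The smallest adjusted p was 0.0580, for Nfkbia in a female suprabasal cluster. Of 37 tests of the diet by sex interaction 0 were called, by edgeR and by DESeq2. Sex and counting software cannot be told apart, and the interaction cancels the software only where its effect does not depend on diet. The edgeR fit gave an unadjusted p under 0.05 in 6 and a smallest adjusted p of 0.146. Those 6 lay in the overlapping suprabasal fits, 2 in the sum, 1 in the Bco1-led and 3 in the Serpinb3a-led cluster. The share of all genes under that unadjusted cut is not given here, so the 6 are not read as a result about the 5 genes. Of all genes, 0% were called in LC-like and T cell-like, 0.0336% in basal and 0.0487% in proliferating cells. In summed suprabasal, terminally differentiated and migratory cells 1.38%, 0.00993% and 0.17% were called.

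In LC-like cells of males, 0 of the 5 genes were called, 2 had an unadjusted p under 0.05 and DESeq2 called 0 of them. The share of all 8305 genes called was 0%. DESeq2 called 4 genes, and 521 had an unadjusted p under 0.05. Tnf was 87.9, 97.2 and 186 CPM in RD and 234, 115 and 142 CPM in HFD males. The groups overlapped, and the log2 fold change of HFD against RD was 0.40 ± 0.29 (SE), with a 95% interval of -0.23 to 1.02 and an adjusted p of 0.865. Tnfaip3 was 175, 121 and 249 CPM in RD and 282, 238 and 250 CPM in HFD males, a log2 fold change of 0.48 ± 0.21 (adjusted p = 0.789). RD replicate 3 lay among the HFD mice. Tnfrsf1b was 59.6, 52.1 and 75.6 CPM in RD and 51.4, 45.9 and 46.5 CPM in HFD males, a log2 fold change of -0.39 ± 0.17 (adjusted p = 0.789). Every HFD male was lower, as for 4.71% of all genes. Tnfrsf1a and Nfkbia had log2 fold changes of 0.13 and 0.19 (adjusted p = 0.936 and 0.871).

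In LC-like cells of females, 0 of the 5 genes were called, 2 had an unadjusted p under 0.05 and DESeq2 called 0 of them. Of all 10643 genes, 0.047% were called and 924 had an unadjusted p under 0.05. Tnf was 181, 149 and 161 CPM in RD and 197, 213 and 241 CPM in HFD females. Every HFD female was higher, as for 8.32% of all genes, and the log2 fold change was 0.39 ± 0.12, with a 95% interval of 0.12 to 0.66 and an adjusted p of 0.379. Tnfaip3 was 173, 122 and 158 CPM in RD and 185, 256 and 172 CPM in HFD females, which overlapped, with a log2 fold change of 0.42 ± 0.17 (adjusted p = 0.524). Tnfrsf1b was 164, 129 and 126 CPM in RD and 117, 161 and 135 CPM in HFD females, a log2 fold change of -0.04 (adjusted p = 0.970). The log2 fold change of males minus that of females, the diet by sex interaction, was -0.01 for Tnf, with a 95% interval of -0.76 to 0.74, and -0.37 for Tnfrsf1b (adjusted p = 0.927). None of the 5 interactions in LC-like cells was called or had an unadjusted p under 0.05, and of all genes 0% were called.

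**Figure D4:**
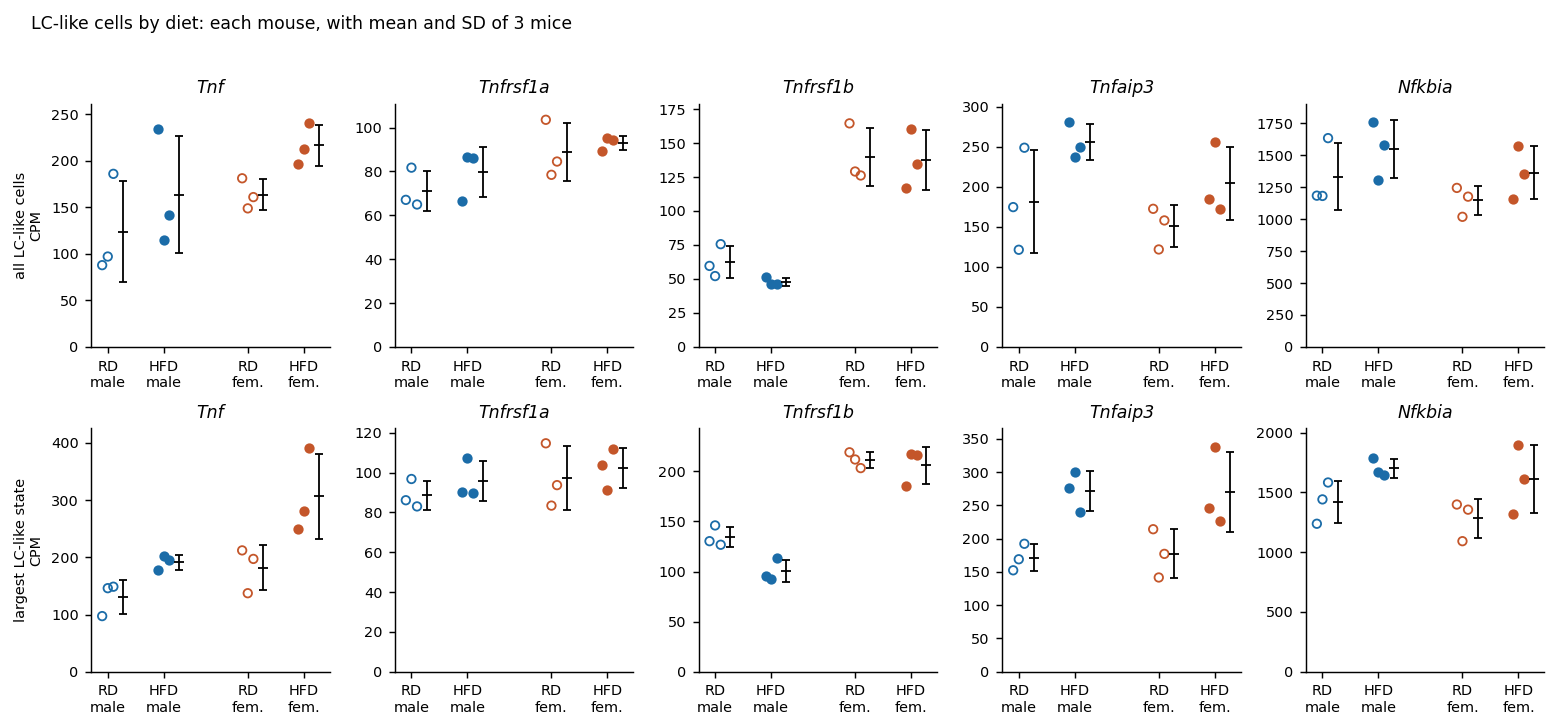
CPM of the 5 genes in all LC-like cells (upper row) and in the largest LC-like state (lower row), 1 point per mouse (open RD, filled HFD), with black marks for mean and SD of 3 mice. In the largest state, all HFD mice of both sexes stand above the RD mice for Tnf and Tnfaip3, as for 6.83% of all genes in males and 8.72% in females, and all HFD males stand below the RD males for Tnfrsf1b, as for 6.76% of all genes.

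State composition differed between mice: the state with keratinocyte transcripts held 39.4 to 60.7% of the LC-like UMIs of RD and 29.6 to 53.2% of HFD males, and 28.7 to 46.2% of RD and 29.8 to 40.1% of HFD females. The state led by Jun and Hspa1a made up 9.01 to 16.9% of LC-like cells in RD females and 18.1 to 22.1% in HFD females. By UMIs the female groups overlapped, with 6.53 to 13.2% and 13.1 to 18.8%. In males the cell shares overlapped, with 18.6 to 46.0% in RD and 27.3 to 36.4% in HFD. How far these shares moved the Tnf level of the class was not tested. Without this state the log2 fold changes of the 5 genes kept their direction and their side of the threshold. The largest state was also tested alone. In females its Tnf level was 212, 137 and 197 CPM in RD and 249, 281 and 391 CPM in HFD, and Tnf was called higher, with a log2 fold change of 0.72 ± 0.16, a 95% interval of 0.37 to 1.06, a fold of 1.64 and an adjusted p of 0.0437. It was 1 of 5 genes called, beside 0.971% of all 8338 genes. The call was lost without RD replicate 1 (adjusted p = 0.0935), RD replicate 2 (0.203), RD replicate 3 (0.107) or HFD replicate 3 (0.278), while the log2 fold change stayed between 0.51 and 0.87. The call was kept without HFD replicate 1 (adjusted p = 0.0137) or HFD replicate 2 (0.0200). Over the alternatives of the female LC-like comparison the adjusted p of Tnf ran from 0.0437 to 0.748. The fits that left a mouse out of the largest state are not among these. In males the largest state held 97.2, 146 and 149 CPM in RD and 177, 202 and 195 CPM in HFD mice. There 0 of 5 genes were called beside 0.282% of all genes, 4 of 5 had an unadjusted p under 0.05, as had 350 of all 4262 genes, and the log2 fold change of Tnf was 0.57 ± 0.18 with an adjusted p of 0.307.

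Tnfaip3 in the largest state was 152, 169 and 192 CPM in RD and 276, 300 and 240 CPM in HFD males, a log2 fold change of 0.69 (adjusted p = 0.0815). In females it was 214, 142 and 177 CPM in RD and 246, 339 and 226 CPM in HFD mice, a log2 fold change of 0.59 (adjusted p = 0.0924). In both sexes every HFD mouse was the higher for Tnf and for Tnfaip3, as for 6.83% of all genes in males and 8.72% in females. Tnfrsf1b was 130, 146 and 127 CPM in RD and 92.4 to 113 CPM in the 3 HFD males (log2 fold change -0.43, adjusted p = 0.541), where every HFD mouse was the lower, as for 6.76% of all genes. In females it was 219, 212 and 203 CPM in RD and 185, 217 and 216 CPM in HFD mice, which overlapped. The diet by sex interaction of the largest state was -0.18 for Tnf (adjusted p = 0.955) and -0.43 for Tnfrsf1b (adjusted p = 0.755).

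Immediate-early and heat shock genes were followed beside Tnf in the largest state. The summed level of 10 such genes was 4945, 4603 and 6697 CPM in RD and 6399, 7975 and 6740 CPM in HFD females, and 4082, 4221 and 4165 CPM in RD and 4988, 4318 and 5107 CPM in HFD males. In females the log2 fold change of all 10 was positive, with 0.77 for Hspa1b, 0.69 for Hspa1a, 0.49 for Ier2 and 0.44 for Egr1 as the largest. In males Junb and Dusp1 had 0.41, while Hspa1a had -0.65, Hspa1b -0.98 and Atf3 -0.08. None of the 10 was called in either sex. In females the edgeR p, unadjusted, was under 0.05 for Ier2 (0.00784), Junb (0.00864), Egr1 (0.00874), Hspa1b (0.0171), Hspa1a (0.0272) and Dusp1 (0.0349). In males it was so for Junb (0.00296), Fosb (0.0232), Dusp1 (0.0320) and, with a negative fold change, Hspa1b (0.0472). Their part in the Tnf result was not tested. Summed markers of T cells were at 0 CPM in the largest state of males and at most 1.31 CPM in that of females, and markers of suprabasal keratinocytes at 624 to 973 CPM in males and 356 to 455 CPM in females. Of the whole LC-like class the keratinocyte markers held 14448 to 21674 CPM in males and 2389 to 8366 CPM in females.

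In T cell-like cells 0 of 3 genes tested in males were called (0.543% of all genes) and 0 of 4 in females (0.279%), with none at an unadjusted p under 0.05 and none called by DESeq2. Tnf was 215, 129 and 196 CPM in RD and 209, 203 and 138 CPM in HFD males (log2 fold change 0.03), and 139, 153 and 121 CPM in RD and 70.5, 129 and 84.4 CPM in HFD females (-0.61, adjusted p = 0.665). The Tnf values rest on 58 UMIs in all males and 97 in all females, and the female difference did not pass the threshold at this depth.

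Among the classes, suprabasal keratinocytes held the smallest adjusted p-values. The 2 clusters were taken apart, because the female cluster called Bco1-led had the volar marker Krt9 among its 10 leading genes. Neither female cluster had a suprabasal marker there. In the Bco1-led cluster of females, Nfkbia was 622, 653 and 675 CPM in RD and 796, 785 and 811 CPM in HFD, a log2 fold change of 0.27 ± 0.07 (adjusted p = 0.0580). In the Serpinb3a-led cluster it was 627, 697 and 741 CPM in RD and 843, 849 and 966 CPM in HFD, a log2 fold change of 0.33 ± 0.09 (adjusted p = 0.0711). All HFD females were higher in both, as for 15.2% and 15.9% of all genes. Of the 5 genes 0 were called beside 2.29% and 2.6% of all genes, 3 of 4 tested and 2 of 4 tested had an unadjusted p under 0.05 (as had 2650 of 12923 and 2464 of 12207 genes), and DESeq2 called Nfkbia in both with adjusted p of 0.0110 and 0.0138, beside 3.57% and 3.19% of all genes. In males Nfkbia was 913, 755 and 1093 CPM in RD and 993, 851 and 951 CPM in HFD in the Bco1-led cluster, and the groups overlapped. In the Serpinb3a-led cluster of males it was 879, 836 and 1120 CPM in RD and 848, 702 and 987 CPM in HFD, a log2 fold change of -0.11 (adjusted p = 0.783), and these overlapped too. The diet by sex interaction of Nfkbia there was -0.42, with a 95% interval of -0.78 to -0.05, an unadjusted p of 0.0298 and an adjusted p of 0.218.

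Tnfrsf1a in the suprabasal clusters of males did not overlap between the diets. In the Serpinb3a-led cluster of males it was 78.6, 89.6 and 90.3 CPM in RD and 98.6, 104 and 98.2 CPM in HFD, a log2 fold change of 0.28 (adjusted p = 0.285). In the Bco1-led cluster it was 56.2, 62.4 and 61.2 CPM in RD and 66.0, 71.4 and 67.3 CPM in HFD, a log2 fold change of 0.22 (adjusted p = 0.638). Every HFD male was higher in both, as for 5.25% and 3.71% of all genes, and 0 of 4 genes tested were called beside 0% of all genes. DESeq2 called none. In females the log2 fold changes were -0.02 and 0.07, and the interaction for the Serpinb3a-led cluster was 0.32 (adjusted p = 0.173).

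Tnf in suprabasal cells had fold changes of opposite sign in the sexes, at low levels. In the Serpinb3a-led cluster it was 4.37, 5.13 and 3.40 CPM in RD and 1.58, 2.27 and 4.56 CPM in HFD males, and 1.02, 1.66 and 0.597 CPM in RD and 1.49, 2.08 and 2.28 CPM in HFD females. The log2 fold changes were -0.56 and 0.77 (adjusted p in females 0.238), the groups overlapped in both sexes, and their difference was -1.31 with an unadjusted p of 0.0262 and an adjusted p of 0.206, beside 1.09% of all genes called. In the Bco1-led cluster the difference was -0.96 (adjusted p = 0.345), beside 0.0772% of all genes called. With no filter on low counts, the Tnf interaction was called in the Serpinb3a-led (adjusted p = 0.00763) and the Bco1-led cluster (0.0365) and in their sum (0.0109), beside 2.83%, 1.54% and 2.44% of all genes.

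In basal, proliferating, terminally differentiated and migratory cells 0 of 4 genes tested were called in each sex. Of all genes, 0% were called in each of these male classes, where DESeq2 called 21 to 111 genes. In females 0.779% were called in basal, 1.86% in proliferating, 0% in terminally differentiated and 0.291% in migratory cells. DESeq2 called none of the 4 genes. The male volar class and the female Ch25h-led cluster were not tested. Unadjusted p-values under 0.05 were 4 in number, in classes where 649 to 2858 of all genes had one. Tnfaip3 in female terminally differentiated cells was 37.9, 28.4 and 18.1 CPM in RD and 18.1, 14.5 and 17.4 CPM in HFD, a log2 fold change of -0.87 ± 0.28 (adjusted p = 0.566). The others were Tnfrsf1a in male terminally differentiated cells (0.41 ± 0.14, adjusted p = 0.133), Nfkbia in male migratory cells (0.27, adjusted p = 0.822) and Tnf in female proliferating cells (0.57, adjusted p = 0.244). HFD replicate 3 had the highest Tnf level of the last, at 19.6 CPM. Over all alternatives the log2 fold change of Tnf in female proliferating cells ran from 0.13 to 0.78. Without the cluster of 404 cells the log2 fold change there was 0.59 (adjusted p = 0.238). In terminally differentiated cells the scaling moved the median of all genes between RD and HFD from -0.28 to -0.03 in males and from 0.14 to 0.03 in females, on the log2 scale, from totals to TMM.

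**Figure D5:**
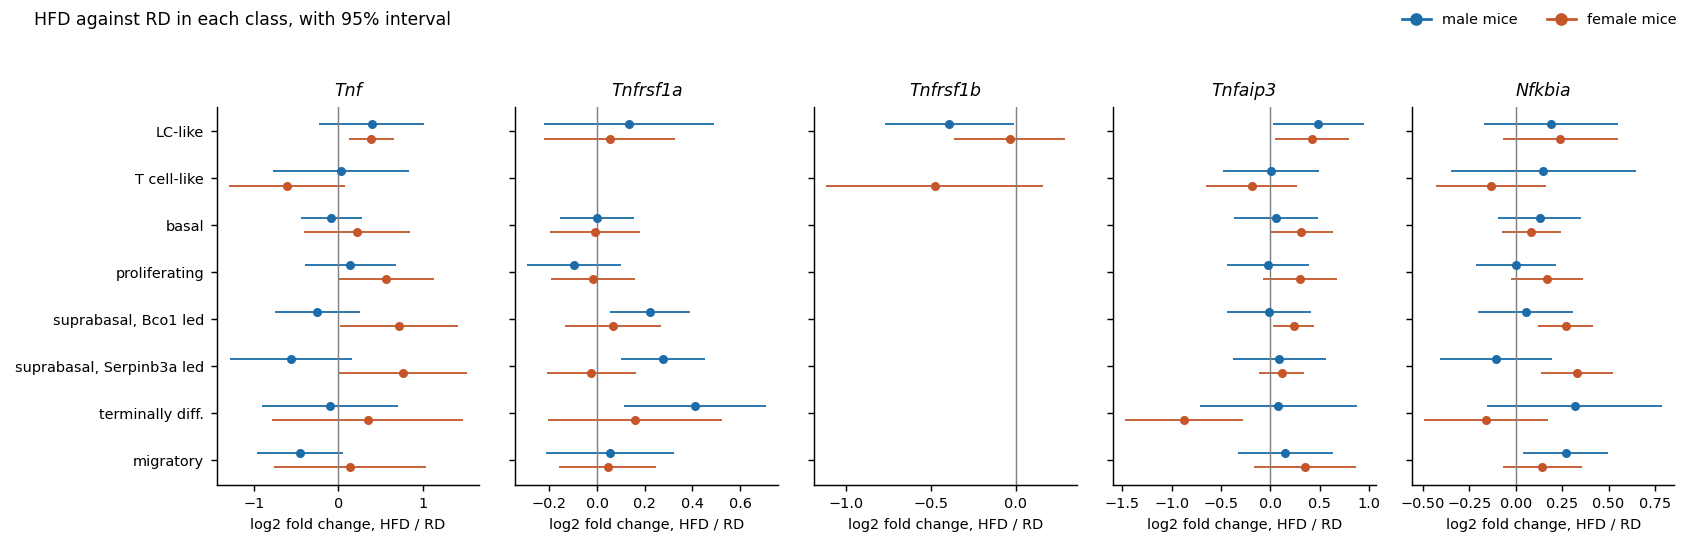
Log2 fold change of HFD against RD (x axis) with its 95% interval for each gene tested in 8 classes or clusters (y axis), in males (blue) and females (orange). Nfkbia lies above 0 in both suprabasal clusters of females (0.27 and 0.33), and no gene passed the adjusted threshold.

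The pathway around the 5 genes was followed with a list of 65 genes that includes them. Its highest level was in T cell-like cells for 30 genes in males and 24 in females, and in LC-like cells for 17 and 21. Of the 61 list genes that reached 5 CPM in a class, 49.2% in males and 39.3% in females were highest in T cell-like cells and 26.2% and 34.4% in LC-like cells. Of all genes that did so, 34.6% and 29.0% were highest in T cell-like and 13.6% and 16.9% in LC-like cells. The T cell-like class was the shallowest, with 320563 UMIs in males and 911658 in females, which widens the spread of its levels. Under HFD in LC-like cells, 0 of 54 genes tested were called in males, with 32 positive, a median log2 fold change of 0.13 and 9 unadjusted p under 0.05, and 0 of 58 in females, with 41 positive, a median of 0.12 and 6 unadjusted p under 0.05. Of all genes, 521 of 8305 in males and 924 of 10643 in females had an unadjusted p under 0.05. Of all genes 50.1% and 50.2% were positive. The sum of both female suprabasal clusters, one of which held a volar marker among its leading genes, had 3.74% of all genes called. There Tradd, the adaptor of Tnfrsf1a, rose by 0.35 ± 0.07 on the log2 scale (adjusted p = 0.0307). Tab2, a subunit that links the complex to the kinase encoded by Map3k7, fell by 0.36 ± 0.07 (adjusted p = 0.0316). Tradd was called in neither cluster alone, with log2 fold changes of 0.36 in the Bco1-led (adjusted p = 0.0501) and 0.36 in the Serpinb3a-led cluster (adjusted p = 0.0548). Tab2 fell by 0.39 in the Serpinb3a-led cluster (adjusted p = 0.0209) and had -0.32 in the Bco1-led cluster (adjusted p = 0.0834). In the former its interaction with sex was 0.45 (adjusted p = 0.0306). No other gene of the list was called in the 7 classes, the 2 suprabasal clusters or their interactions. Tnf was called in the largest LC-like state of females, where list genes other than the 5 members were not looked up.

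Likeness over the 7 classes was measured as the lower of the male and female Pearson r of log2(CPM + 1), among 11201 genes with at least 5 CPM in a class of each sex, as a description. Most like Tnf were Serpinb6b, Ankrd33b, Antxr2, Ccrl2 and Gpr132 (r of at least 0.972). Most like Tnfrsf1a were Tmem205 (0.971), Chml, Micall1, Cul4a and Slc15a4 (0.955). Most like Tnfrsf1b were Ptafr, Gpr171, Cd48, Was and Tnfrsf9 (0.998 to 0.999). Most like Tnfaip3 were Bin2, Gpr34, Akna, Ppp1r16b and Sytl3 (0.978 to 0.981), and among those most like Nfkbia were Zeb2, Pde3b, Zbtb46 and Kcnab2 (0.958 to 0.968). The class means share libraries and depth, so that each r rests on 7 points.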

How the data were processed

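Epidermal cells of 12 mice were counted as UMIs per gene and barcode. The authors deposited raw UMI counts without normalization, 1 matrix per mouse, and the submitters' processing notes name Cell Ranger 7.2.0, Seurat 5.0.0 and GRCm38, while file headers give Cell Ranger 6.1.0 for males. The counting of intronic reads is not given in the sources used here. A cell needed 200 genes (males) or 500 genes (females), no more than 6000, and mitochondrial UMIs of up to 5%. Each sex was clustered with scanpy 1.11.5 and leidenalg 0.10.2 on 1997 variable genes, the members left out, with 10 principal components and 20 neighbors. A cluster was named when at least 3 markers of a class each reached 0.1 of its cells and a log2 fold of 0.5, and immune cells were clustered again. Cells marked as doublets were those with the highest scrublet scores of a library and were kept in the main analysis. Their share was fixed in advance at 0.8% of cells per 1000 deposited barcodes, which came to 5.9% to 13.0% per library. UMI sums per mouse and class entered edgeR 4.0.16 (TMM, filterByExpr, quasi-likelihood test), with p-values adjusted by Benjamini-Hochberg over all genes, a threshold of 0.05 and 95% intervals from the t distribution. Names cover the 5 members, list genes past the threshold, and the 5 genes most like each member, of which 1 is not reported here. Members and lists were chosen with earlier results of these data known.

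Alternatives were DESeq2 1.42.0, no filter on low counts, the replicate number as a block, leaving out each mouse, and for LC-like cells a limit of 10% mitochondrial UMIs, removal of marked doublets, and the largest state alone, which took the place of a resting state because no subcluster met that name. Levels were also taken as means over cells and without marked doublets. Chosen after seeing the data were the LC-like levels without the keratinocyte-transcript state, the fits without it or the state led by Jun and Hspa1a, the suprabasal clusters apart, the largest female proliferating cluster alone, and, in the largest state, the interaction and leaving out each mouse. Intervals of fold changes cover the spread between mice, and limits from a count of 0 cover counting error only. The test was tried on simulated data with 200 changed genes, where it recovered 55% of 2-fold and 94% of 4-fold changes in male LC-like cells (8305 genes), and 68% and 95% in female (10643 genes), with 5.7% and 6.86% of its calls false. Over all classes the false share was 4.03% to 11.9%. The recovered shares hold for 2-fold and 4-fold changes of 200 genes and not for the smaller fold changes of the members in LC-like cells.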

Additional observations from a re-analysis of the deposited data

How the results depend on the processing

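Members' log2 fold changes kept their direction and their side of the threshold in 367 of the 389 recomputed values that did not leave out a mouse, and in 430 of the 495 that did, of which 59 turned in sign. In males the sign turned for Tnfrsf1a in basal cells with DESeq2 (0.0015), with no filter on low counts (0.00355) and with the replicate block (0.00062), for Nfkbia in proliferating cells with no filter (-9.18e-05), and with the block for Tnfaip3 in proliferating cells (0.019) and the Bco1-led suprabasal cluster (0.035). In females it turned for Tnfrsf1a in basal cells with no filter (0.0018). Counts of members called rose from 0 to 1 in female LC-like cells with the largest state alone (Tnf, log2 fold change 0.72, adjusted p = 0.0437), in female proliferating (Tnf) and terminally differentiated cells (Tnfaip3) with no filter (beside 3.44% and 0.754% of all genes called in the same fit), and for Nfkbia in the summed suprabasal cells of females with DESeq2 (6.12%), with no filter (4.61%) and without HFD replicate 2 (7.08%), in their Bco1-led cluster with DESeq2 (3.57%) and without HFD replicate 2 (7.36%), and in their Serpinb3a-led cluster with DESeq2 (3.19%), with no filter (4.97%) and with the block (2.42%). They rose from 0 to 2 (Tnf and Nfkbia) in the female Bco1-led cluster with no filter (4.59%), and from 0 to 1 with no filter in the interactions of the summed suprabasal (Tnf, 2.44%), terminally differentiated (Tnfaip3, 3.70%), Bco1-led (Tnf, 1.54%) and Serpinb3a-led cells (Tnf, 2.83%). The cause was not tested. Leaving out each mouse in turn turned the sign in 33 results. In males these ranges were Tnfrsf1a -0.00303 to 0.17 in the largest LC-like state, Tnf -0.013 to 0.17, Tnfaip3 -0.099 to 0.16 and Nfkbia -0.11 to 0.42 in T cell-like cells, Tnf -0.22 to 0.10, Tnfrsf1a -0.045 to 0.036 and Tnfaip3 -0.20 to 0.22 in basal cells, Tnf -0.093 to 0.36, Tnfaip3 -0.26 to 0.12 and Nfkbia -0.051 to 0.090 in proliferating cells, Tnfaip3 -0.18 to 0.22 and Nfkbia -0.13 to 0.099 in the summed suprabasal cells, Tnf -0.70 to 0.32 and Tnfaip3 -0.24 to 0.44 in terminally differentiated cells, Tnfrsf1a -0.024 to 0.17 and Tnfaip3 -0.069 to 0.42 in migratory cells, Tnfaip3 -0.25 to 0.13 and Nfkbia -0.065 to 0.18 in the Bco1-led suprabasal cluster, Tnfaip3 -0.15 to 0.27 and Nfkbia -0.22 to 0.029 in the Serpinb3a-led suprabasal cluster. In females these ranges were Tnfrsf1a -0.040 to 0.18 and Tnfrsf1b -0.16 to 0.099 in LC-like cells, Tnfrsf1a -0.038 to 0.19 and Tnfrsf1b -0.10 to 0.052 in the largest LC-like state, Tnfaip3 -0.34 to 0.082 in T cell-like cells, Tnf -0.26 to 0.47 and Tnfrsf1a -0.063 to 0.091 in basal cells, Tnfrsf1a -0.068 to 0.075 in proliferating cells, Tnfrsf1a -0.076 to 0.12 in the summed suprabasal cells, Tnf -0.17 to 0.83 and Tnfrsf1a -8.72e-05 to 0.13 in migratory cells, Tnfrsf1a -0.020 to 0.18 in the Bco1-led suprabasal cluster, Tnfrsf1a -0.12 to 0.064 in the Serpinb3a-led suprabasal cluster. Without 1 mouse the Tnf call in the largest state of females was lost in 4 of 6 cases, with log2 fold changes of 0.51 to 0.87. All genes called in LC-like cells were 0 in males against 74 with no filter, 4 with DESeq2 and 12 in the largest state, and 5 in females against 251, 28 and 81, and 98 without the state with keratinocyte transcripts. In keratinocyte classes and clusters the calls were 0 in males against 20 to 111 with DESeq2 and 128 to 582 with no filter, and 0 to 524 in females against 14 to 856 and 143 to 1078. Levels moved by more than the spread between mice in 12 of 155 values without marked doublets, in 5 of 155 as means over cells and in 6 of 10 LC-like values without the state with keratinocyte transcripts. Same-numbered mice did not deviate together (r of -0.225, 0.190 and -0.190 in male and -0.198, -0.127 and 0.085 in female LC-like cells), and only in male basal cells did each mouse correlate best with its own number, so that the numbers were not taken as pairs. With the block, calls were 345 against 0 in male terminally differentiated and 14 against 114 in female basal cells.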
